A study of Mus musculus with 8 samples.

Results

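The regions described here are short m6A peaks, each a single unbroken stretch of at most 300 bases on the genome. They were selected on 2 measured values, taken from the authors' deposited table of differential m6A peaks, the number of blocks and the block size. The rule found 361 of the 2114 peaks in that table, on 354 genes, of which 7 carried 2 such peaks. The rule used the length of the peak, and the table holds only peaks that the authors called different between conditions, with a false discovery rate of at most 0.0282 among the short peaks. Length, enrichment, size and sign of the change are therefore given as descriptions, without a test.

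The peaks come from N2a cells, a mouse neuroblastoma line, in a study of how EMG1, a methyltransferase of 18S ribosomal RNA, influences m6A in mRNA. One set of cells received a small interfering RNA against Emg1 and the control set received a control one, and both were collected 48 h later. Poly(A) RNA was selected, part of it was precipitated with a kit for m6A, and stranded libraries were made from this immunoprecipitated (IP) RNA and from input RNA. Each of the 4 groups (knockdown IP, knockdown input, control IP, control input) held 2 libraries, and the labels do not say whether these came from separate cultures, so p-values measure only a spread that may be technical. In input RNA, Emg1 had a log2 change of -1.73 ± 0.11 (SE, the authors' deposited table), or 30.2% of control (DESeq2 adjusted p 3.37e-54), so a negative input change means less RNA after knockdown. The numerator of the peak change is not named in the files, so peaks are called negative or positive with the sign as deposited. Values per library were not in the tables used here.

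N6-methyladenosine (m6A) is laid down on adenosines of mRNA by the Mettl3 and Mettl14 complex, removed by Alkbh5 and Fto and read by YTH proteins. In mammalian mRNA it is best known near stop codons, in 3′ untranslated regions and in long internal exons. At the other end of the mRNA, an adenosine next to the cap can carry m6Am, a related mark that antibodies against m6A also bind, and the peak values here do not separate the marks.

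Sequences are shown for some of the short peaks at annotated gene starts. Such peaks were 14.2% of short peaks and 18.8% of all differential peaks, so the place itself was not particular to short peaks. The starts were taken from RefSeq (GRCm38.p6, the assembly that mm10 names). For 42 of the 51 short peaks within 100 bases of a start, the RefSeq table of start regions held that start, and in 26 of these the peak began on the start's first base. Several are shown here because the peak edge falls on the first annotated base, because they carry some of the most negative changes, or, for Polr2a, because it carried the one positive change at a start. Where transcription starts in these cells was not measured. All are written 5′ to 3′ on the gene's strand, as far as 30 bases into the gene. The first base at the annotated start is in capitals, as is the motif GGAC, a common form of the m6A consensus.
Ppp2ca, chr11:52098824-52098853, plus strand: Attacagaaagccgagtcccgagctagggc
Phox2a, chr7:101818313-101818342, plus strand: Acttgcgttgcaccggggcagagtgcgggc
Chac1, chr2:119351242-119351271, plus strand: Ggccttcctggccggagggtttaaagagcg
Nudc, chr4:133545998-133546027, minus strand: Gggcgaacccgcacggccgggcggctcctg
Hsph1, chr5:149636286-149636315, minus strand: Gtaaaatgctgcagattctggaaagttctc
Hnrnpab, chr11:51606852-51606881, minus strand: Ggcattataaagagctccacgagttggcat
Rundc1, chr11:101425085-101425114, plus strand: Gggcggcgtttccgggaagatggcgacggt
Sptbn1, chr11:30219743-30219772, minus strand: AactctgaaaagtaactgatgtGGACaagc
Polr2a, chr11:69758604-69758633, minus strand: AgaagcgccgagagcgcgaccgGGACggtt
For Ctnnb1, which had the most negative change of all 361, the peak began 30 bases after the annotated start, and its first 20 bases (chr9:120933430-120933449, plus strand) read gcggcaggatacacggtgcc.

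Among the 26 starts on which a short peak began, the first base was A in 11 (42.3%, 95% exact binomial interval 23.4% to 63.1%, for counting error only). The same base was A at 28.8% of the 12301 starts of genes with an adjusted p in input and at 34.4% of all 32851 starts in the RefSeq table, both inside that interval. The motif GGAC stood on the gene's strand in the first 50 bases of 7 of the 26 (26.9%, interval 11.6% to 47.8%), against 20.7% of starts of genes with an adjusted p and 18.9% of all starts. On the opposite strand it stood in 4 of the 26 (15.4%), against 20.6% and 17.4%. Among all 180 differential peaks that began on a start with a sequence, these 26 included, the first base was A in 28.3% and GGAC stood in 20.6%. With 26 starts, both intervals held the background shares, and no difference was detected for the first base or for GGAC. The median GC content of the first 50 bases was 61% for the 26, 66% for starts of genes with an adjusted p and 56% for all starts.

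The short peaks were about evenly split by sign. Of the 361, 175 had a negative change and 186 a positive one in the authors' deposited table, or 48.5% negative against 53.1% of all 2114 peaks. The other peak classes were spread more widely, at 34.9% negative among 708 longer 1-block peaks, 52.1% among 512 peaks of 2 blocks and 81.4% among 533 peaks of 3 or more blocks. The median change was -1.01 among negative and 1.17 among positive short peaks (log2), and changes ranged from -6.26 to 3.02. A change of at least 2-fold in either direction was held by 205 short peaks (56.8%), against 27.6% of all differential peaks.

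The short peaks were weakly enriched. Their median fold enrichment was 2.04, with a range from 1.05 to 11.5, while the median was 5.53 over all differential peaks and 8.84 over longer 1-block peaks. Under 2-fold enrichment lay 175 of the 361. Their median length was 210 bases, from 59 to 300, and 317 lengths (87.8%) lay within 1 base of a multiple of 30. The 38 shortest, under 100 bases, had a median enrichment of 1.42 and a median size of change of 1.55, while the 202 of 200 to 300 bases had 2.63 and 0.99. Across the 361, length and enrichment had a Spearman rho of 0.62, a description over peaks that share the same 8 libraries. At the limit of the rule, the 47 peaks of 291 to 300 bases had a median enrichment of 3.39 and a median size of change of 1.02, with 25 negative. The 11 1-block peaks just past it, all of 301 bases, had 3.45 and 0.86, with 3 negative. Of the 14 peaks at the full 300 bases, 6 were negative and 8 positive, from -2.14 on Shank2, a postsynaptic scaffold gene, to 1.70 on Cntrob, a centriole duplication gene.

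Some of the 361 rows describe the same place under different gene names. In 5 pairs, 2 short peaks overlapped, which leaves 356 distinct places, and 6 more short peaks overlapped a peak of another class. Of the 5 pairs, 4 were on opposite strands, such as Acp2, a lysosomal acid phosphatase gene, with 1.46 beside Ddb2, a DNA damage recognition gene, with 1.45, and Mina and Crybg3 with 1.56 each. The pair on 1 strand was Cmtr1, whose product methylates the cap-adjacent ribose, with 0.93 beside its readthrough gene Rnf8-cmtr1 with 0.94. The library kit keeps strand, but no source used here says whether the counting used it, and the gene such a peak belongs to cannot be told apart.

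The place on the gene went with the sign. Of the 361 peaks, 360 could be placed in the span of their gene, introns included (Rab1, a trafficking GTPase gene, could not), and 357 lay on protein-coding genes. Within 100 bases of an annotated start lay 51 peaks (14.2%), of which 50 were negative. In the last 10% of the span lay 205 peaks (56.9%), of which 77 were negative and 128 positive. The other 104 peaks had 47 negative and 57 positive changes. By size, the gene start peaks had a median change of -1.80, the negative peaks of the last 10% had -0.66 and the positive ones there 1.09.

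**Figure D1:**
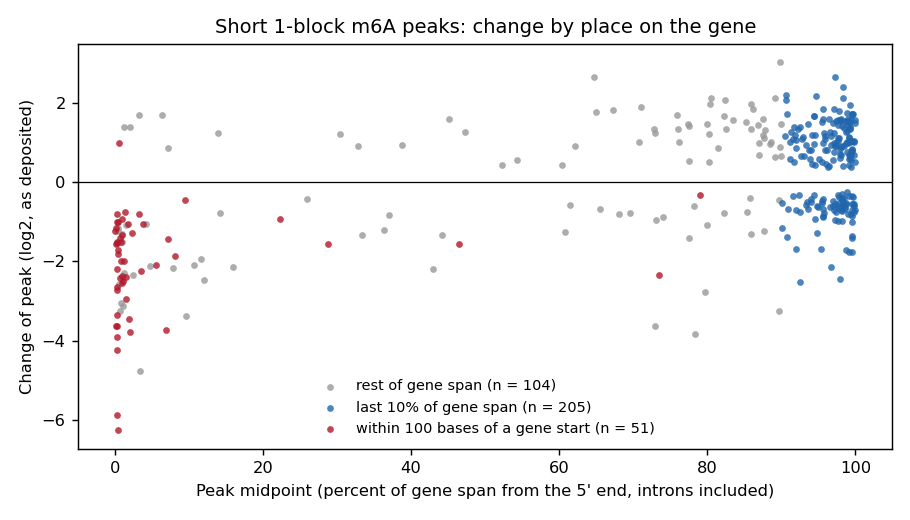
Each point is 1 of 360 short peaks; the x axis is the place of its midpoint along the gene span (percent, from the 5′ end) and the y axis the deposited log2 change. The 51 peaks at gene starts (red) lie almost wholly below 0, with Polr2a above it, while the 205 peaks of the last 10% (blue) lie on both sides.

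Negative changes at gene starts were not particular to short peaks. There, 20 of 22 longer 1-block peaks, 82 of 96 peaks of 2 blocks and 207 of 227 peaks of 3 or more blocks were also negative. In the last 10% of the span, 30.0% of 403 longer 1-block peaks and 39.3% of 112 peaks of 2 blocks were negative, against 37.6% of short peaks, but 69.2% of 39 peaks of 3 or more blocks. The classes did differ in how many of their peaks lay there, since the last 10% held 56.9% of short and 57.1% of longer 1-block peaks but 36.0% of all differential peaks. In the first 10% of the span, the shares were 18.6% of short peaks, 5.10% of longer 1-block peaks and 7.97% of all. Short peaks were not the class most often at starts. Within 100 bases of a start lay 14.2% of short and 3.11% of longer 1-block peaks. The same share was 18.8% for peaks of 2 blocks, 42.7% for 3 or more blocks and 18.8% for all. Midpoints counted introns, so among the 227 start peaks of 3 or more blocks only 10.1% had theirs in the first 10%.

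**Figure D2:**
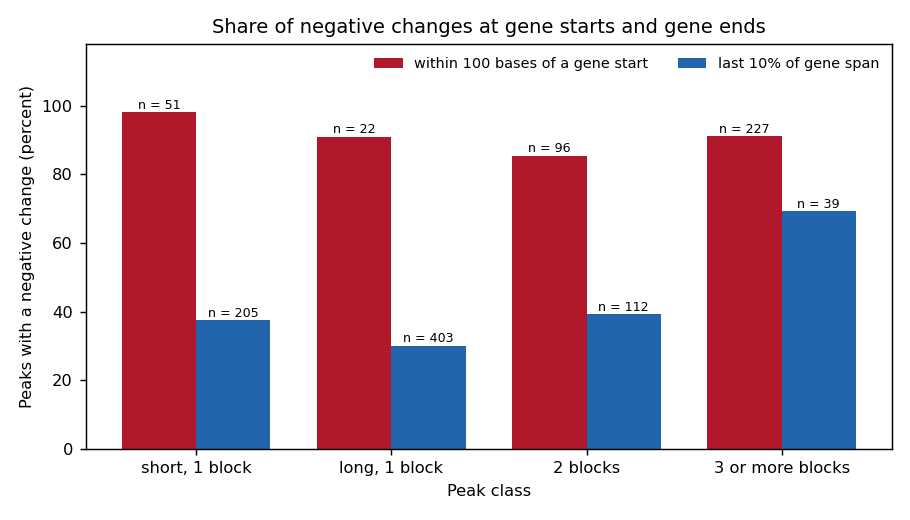
Bars give the percent of peaks with a negative change within 100 bases of a gene start (red) and in the last 10% of the gene span (blue), for 4 peak classes by number and length of blocks, with the number of peaks above each bar. In every class the bar at gene starts is higher, 98.0% against 37.6% for short peaks.

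Of the 51 gene start peaks, 32 began exactly on an annotated start, and 31 of those were negative. The other 19 began between 34 bases before and 90 bases after one. For 9 of the 51, the peak began more than 100 bases from the 5′ end of the gene span and met the rule through another annotated start inside it. In 5 of these (Aars, Fth1, Gnas, Ifitm2 and Sptbn1) the peak's midpoint lay beyond the first 10% of the span, and in 4 (2310035C23Rik, Hsph1, Parl and Vat1l) within it. Negative changes of at least 2-fold were held by 43 of the 51. Outside these, 21 more short peaks had their midpoint in the first 10% of the span, and 16 of them were negative. The most negative of these was on Ankrd13c, an ankyrin repeat gene, with -4.75 in a peak of 90 bases that began 526 bases after the start.

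The most negative peak of the set lay at the start of Ctnnb1, which encodes beta-catenin, the Wnt effector and adherens junction protein. Its change was -6.26 with a fold enrichment of 5.13 in the authors' deposited table. Itgb1, the beta 1 integrin subunit, followed with a peak that began 90 bases after its start, a change of -5.86 and an enrichment of 2.65. Input RNA of these genes moved little. Ctnnb1 rose by 0.16 ± 0.05 (log2, SE, adjusted p 0.00665 by the authors' DESeq2), and Itgb1 had 0.07 ± 0.05 (adjusted p 0.345).

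The next gene start peaks covered several kinds of genes. Urgcp, a gene linked to cell cycle progression, had -4.24, but its peak overlapped a row of the opposite-strand gene 2210015D19Rik with -3.45. Ppp2ca, the catalytic subunit of protein phosphatase 2A, had -3.91 at its first base. The peak on Phox2a, a transcription factor of the sympathoadrenal lineage, (chr7:101818313-101818492) had -3.78. Mgat2, a Golgi enzyme of N-glycan synthesis, had -3.73, Syap1 had -3.64 and Pafah1b1, which encodes the dynein regulator LIS1, had -3.62. Chac1, a glutathione-degrading enzyme induced by the integrated stress response, had -3.44 with a 4.61-fold enrichment.

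Input RNA of these genes went in both directions. Phox2a rose by 0.59 ± 0.07 (log2, SE) and Urgcp by 0.41 ± 0.11, while Chac1 had -0.82 ± 0.10, Ppp2ca -0.22 ± 0.06 and Pafah1b1 -0.16 ± 0.06 in the authors' deposited table, all with an adjusted p under 0.05 by DESeq2. Eif4ebp1, the gene of the eIF4E repressor 4E-BP1, had a gene start peak with -2.55 on RNA that itself fell (log2 change -1.74 ± 0.07, adjusted p 8.20e-136 by DESeq2). Ccnd1, which encodes cyclin D1, had a start peak with -1.52 on RNA that rose by 0.57 ± 0.05 (adjusted p 5.69e-24 by DESeq2). A peak with a negative change at a gene start thus lay on RNA that rose, on RNA that fell and on RNA that was not called.

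Chaperone and RNA-binding protein genes were also present at starts. Nudc, a dynein-associated cochaperone gene, had -3.34 in a peak of 61 bases, and Hsph1, the HSP105 chaperone gene, had -2.94. Hnrnpab, a nuclear ribonucleoprotein gene, had -2.49 at a low enrichment of 1.65. The strongest enrichment of all short peaks was at the start of Rundc1, at 11.5-fold with a change of -2.00. That peak overlapped one on Ptges3l, on the opposite strand, with 9.59-fold and -2.10. Tbcc, a tubulin-folding cofactor gene, had 8.54-fold and -1.87, and Mtfp1, a mitochondrial fission gene, had 8.09-fold and -1.27.

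Polr2a, the largest subunit of RNA polymerase II, was the single gene start peak with a positive change, 0.99 with an enrichment of 3.38. Its input RNA rose by 0.64 ± 0.05 (log2, SE, adjusted p 1.85e-29 by the authors' DESeq2).

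The positive peaks had a narrower range of changes and lay mostly toward gene ends. The highest change, 3.02, was on Edem1, an endoplasmic reticulum degradation factor, in a peak of 61 bases with only 1.32-fold enrichment. Rbl1, the retinoblastoma family gene for p107, had 2.65, also in 61 bases and at 1.38-fold. Mdn1, a giant ATPase of 60S ribosome assembly, had 2.64 at 3.05-fold, and Sumf1, the sulfatase-activating enzyme, had 2.40 at 1.36-fold. Then came Rfx5 (2.21), a regulator of MHC class II genes, Pcyt1a (2.17), and 3 genes at 2.12: Gemin4 of the SMN complex, Ilvbl and Slc36a1, a lysosomal amino acid transporter. Med17, a Mediator subunit, had 2.08. Of these 10, 5 were under 1.6-fold enrichment.

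Among highly enriched positive peaks, Mllt3, a subunit of the super elongation complex, had 8.77-fold enrichment and a change of 1.58 in the last 10% of its span. Kdm1a, the histone demethylase LSD1, had 7.07-fold and 1.01. The weakest enrichment of any short peak was 1.05, on Rpl41, which encodes the smallest ribosomal protein. Its change was -1.32, on a gene with a mean normalized count of 30976 in input. Its log10 false discovery rate was -434, the lowest value among all differential peaks. Peaks of 2 blocks and of 3 or more blocks had the same lowest value, so it may be a limit of the score. Rpl41 has near-identical copies elsewhere in the genome, so its peak is uncertain. Next by weak enrichment came Arpc3 of the actin-nucleating Arp2/3 complex (1.09-fold), Rrp1, a ribosome assembly gene (1.11-fold), and the helicase gene Dhx15 and the chromatin reader gene Psip1 (1.15-fold each), all in peaks of 59 to 61 bases and with changes from -0.78 to -0.29.

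A few short peaks sat on repeated gene families and share this limit. Tubb2a-ps2, a transcribed tubulin pseudogene, had -3.62 at 8.29-fold, the histone genes Hist1h2af and Hist1h1c had -2.77 and -1.09, and Fth1, a ferritin subunit with many pseudogenes, had -1.57. No source used here says how reads that fit several copies were assigned.

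Where a gene carried 2 short peaks, the place again went with the sign or size. Pcyt1a, the rate-limiting enzyme of phosphatidylcholine synthesis, had -2.72 at its start, in 299 bases with 5.64-fold enrichment, and 2.17 near its end, in 90 bases with 1.5-fold. Gnas, the stimulatory G protein alpha subunit, had -2.33 at a start and -0.71 at its end. Aars, the alanyl-tRNA synthetase, had -0.94 at a start and -0.74 at its end, and Ndufb7 of respiratory complex I had -1.33 and -0.98. Ppp2ca had a second peak with -1.32 closely downstream of the first.
Eif2s1, the alpha subunit of translation initiation factor eIF2, had -0.35 and 0.58 in 2 peaks of the last 10% of its span. Input RNA of Eif2s1 and Pcyt1a, whose peaks had opposite signs, was not called by the authors' adjusted p.

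Of the 361 short peaks, 66 (18.3%), on 65 genes, shared their gene with a differential peak of another class. They gave 72 pairs with a median gap of 4810 bases, and 52 pairs had the same sign. In 17 pairs the gap was at most 500 bases, with a median of 119, and 15 of these had the same sign. In all 17 the short peak had the larger change, with a median size of 1.38 against 0.71, and in 14 it was the less enriched, with medians of 2.27-fold and 8.61-fold. Among the 55 pairs more than 500 bases apart, 37 had the same sign. In 44 of these 55 the short peak had the larger change, with a median size of 1.26 against 0.71. It was also the less enriched in 44, with medians of 1.94-fold and 3.94-fold, so both traits were not particular to close pairs. Both peaks of a pair had passed the authors' threshold for a difference, and the depth behind each is unknown.

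Beside Gemin4's short peak with 2.12 and 1.82-fold enrichment stood, 89 bases away, a peak with 0.59 and 51.1-fold. Zfp260, a zinc finger gene, had 1.45 at 2.85-fold beside 0.73 at 27.9-fold. Elavl3, a neuronal RNA-binding protein gene, had -1.38 at 1.62-fold beside -0.95 at 8.61-fold, and Csnk1e, casein kinase 1 epsilon, had -0.71 beside -0.65. The 2 close pairs of opposite sign were Baz1b, a chromatin remodelling gene, with 0.42 beside -0.23, and Zfp617 with -2.52 beside 0.77.

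**Figure D3:**
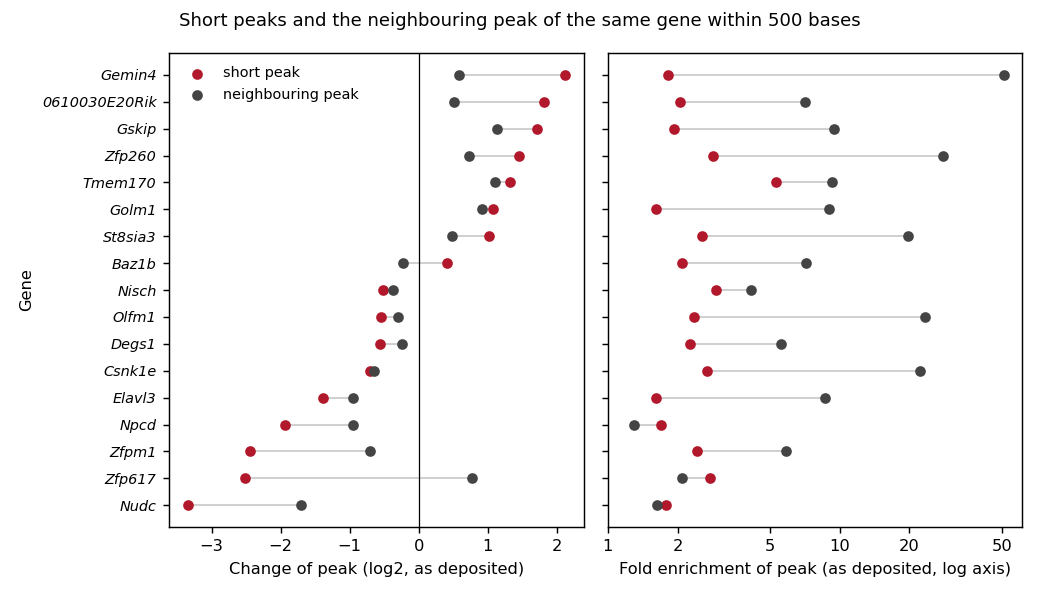
For the 17 genes with a short peak (red) and another differential peak (grey) at most 500 bases away, the left panel gives the deposited log2 change of each and the right panel the fold enrichment on a log axis. Red points lie farther from 0 on the left in all 17 genes and are lower on the right in 14.

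Known gene groups were spread over both signs. Of the m6A machinery, only the demethylase gene Alkbh5 held a short peak, in the last 10% of its span, with a change of -0.95 at 1.36-fold, and its input RNA was not called (log2 change -0.04 ± 0.06, adjusted p 0.645 by the authors' DESeq2). None of the 12 measured m6A writer and cofactor genes, the 14 reader genes or the 14 genes for Emg1 and rRNA modification held one. These lists held 2, 5 and 2 differential peaks of other classes, in that order. Short peaks lay on only 353 of the 12807 genes with an adjusted p in input. Their absence from lists this small therefore says little. Of neuroblastoma identity markers, Phox2a, Stmn2 and Ncam1 held short peaks, all negative. Stmn2, a microtubule regulator of growing axons, had -0.66 and Ncam1, a neural adhesion molecule, -0.85, both in the last 10%. All 15 measured identity markers had an adjusted p in input, where 7 rose (46.7%) and 2 fell (13.3%), against 17.1% and 15.5% of all genes tested. No gene on the marker lists of leukocytes, fibroblasts or glia held a short peak. Only 6, 5 and 8 of these markers were measured and 1, 5 and 2 had an adjusted p in input, so this absence also says little.

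Neural transcription factor genes held 3 short peaks, with -3.78 on Phox2a, 0.92 on Sox11 and 0.90 on Pou4f1. Cell cycle genes held 7. Rbl1 (2.65) and the transcription factor genes E2f1 (1.69) and E2f7 (1.22) were positive, while Ccnd1 (-1.52), the spindle checkpoint kinase gene Bub1b (-1.0), the separase gene Espl1 (-0.79) and the mitotic kinase gene Aurka (-0.53) were negative. Among adhesion and Wnt genes, Ctnnb1 and Itgb1 were negative, and the alpha-catenin gene Ctnna1 (0.38) and the receptor gene Fzd3 (0.94) were positive. Of the immediate early genes and Myc, Dusp4, a phosphatase of MAP kinases, held a start peak with -0.93.

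Zinc finger genes of the Zfp series held 8 short peaks, of which 7 were positive, from 0.50 on Zfp664 to 1.71 on Zfp869. The eighth was Zfp617. Solute carrier genes also held 8, with 5 positive, led by Slc36a1 (2.12) and Slc39a14 (1.85), a zinc and iron importer. Splicing and hnRNP genes held 7, with 4 negative, among them Hnrnpab (-2.49) and Hnrnpu (-2.16). In the integrated stress and unfolded protein response, Chac1 and Atf4 (-0.31), its transcription factor, were negative and Edem1 positive. Input RNA of all 3 genes fell, as it did for 27 of the 44 genes of that list with an adjusted p, while 2 rose. The sterol regulator gene Srebf2 had 1.11 and the mevalonate pathway gene Pmvk -0.37. Input RNA of both fell, as it did for 23 of the 28 genes of the cholesterol list, while 2 rose. These falls were thus not particular to genes with short peaks. At most 8 peaks per list are too few to set any list apart.

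Input RNA of the genes with short peaks was called in 160 of 353 genes with an adjusted p, 88 higher and 72 lower, by the authors' DESeq2 at an adjusted p under 0.05. Those are 24.9% and 20.4%, against a background of 17.1% that rose and 15.5% that fell (32.6% in either direction) among all 12807 genes tested, and 19.4% and 17.1% among the 11134 with a mean normalized count of at least 100. Past a 1.5-fold change after centring, the order turned, as it did over all genes tested. Of the 353 genes with short peaks, 6 rose (1.70%) and 10 fell (2.83%), against a background of 2.15% and 4.47%. Genes with short peaks had high counts, with a median mean of 2643, and the part of this in the share called was not tested. Lower RNA in bulk samples cannot be told apart from fewer cells with the RNA.

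By the sign of the peak, 54 of 167 genes with negative short peaks alone rose in input (32.3%) and 29 fell (17.4%). Of 183 genes with positive short peaks alone, 34 rose (18.6%) and 43 fell (23.5%). The median input changes were small, 0.06 and -0.04 (log2). The median mean count was 3750 for genes with negative and 1648 for genes with positive short peaks, and the part of this gap in the calls was not tested. Over 360 short peaks, peak change and input change had a Spearman rho of -0.12, a description over values that share libraries. Among genes with negative peaks of the other classes, the shares that rose and fell were 48.7% and 8.97% for longer 1-block peaks, 40.9% and 15.6% for peaks of 2 blocks and 41.0% and 10.6% for peaks of 3 or more blocks, against 17.1% and 15.5% of all genes tested.

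By place, 16 of the 51 genes with a start peak rose (31.4%) and 10 fell (19.6%). Of the 204 genes with a peak in the last 10%, 45 rose (22.1%) and 48 fell (23.5%). The background over all genes tested was 17.1% and 15.5%. The genes that changed most in input beside Eif4ebp1 and Chac1 were, downward, Tubb2a-ps2 (-0.91 ± 0.16, log2, SE), Sptssa, a subunit of serine palmitoyltransferase (-0.79 ± 0.14), and Stard10, a lipid transfer gene (-0.76 ± 0.12). Upward they were Hist1h2af (1.44 ± 0.28), Slc36a1 (0.72 ± 0.06), Ddb2 (0.72 ± 0.29), Polr2a and 5730409E04Rik (0.61 ± 0.23), all in the authors' deposited table. Their peaks had both signs: 1.40 on Sptssa, -0.67 on Stard10, -2.77 on Hist1h2af, 2.12 on Slc36a1 and -3.82 on 5730409E04Rik.

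**Figure D4:**
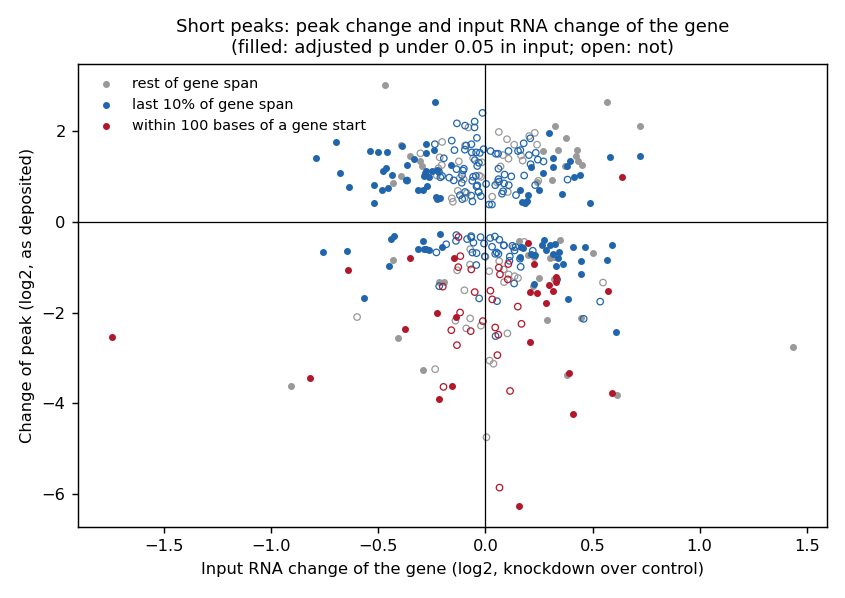
Each point is 1 of the 360 short peaks with an input value; the x axis is the log2 change of the gene's input RNA (knockdown over control) and the y axis the deposited log2 change of the peak, coloured by place on the gene and filled where the authors' adjusted p in input was under 0.05. Gene start peaks (red) stay below 0 on the y axis on both sides of the x axis, except Polr2a, and the leftmost point is Eif4ebp1 at -1.74.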

How the data were processed

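Per the submitters' processing notes, the tools were Trimmomatic, HISAT2 and DESeq2 and the build was mm10. Versions, peak caller, read counter, annotation and any pooling of replicates were not given in the sources used here. For input RNA, the authors deposited the mean normalized count over libraries (a signal), the log2 fold change with its SE, a Wald score, the p-value and its adjusted form. For each peak, the authors deposited a fold enrichment (a ratio), a log2 change, and scores that hold the log10 of the false discovery rate and of p. No table holds values per library, so depth is unknown and no test was refitted. There were 0 sample columns left unused.

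The list members and gene lists were chosen with earlier results of these data known. Genes were matched by name to a RefSeq table of GRCm38.p6: 347 peaks by symbol, 13 by synonym and 1 not at all. A peak was at a gene start when its 5′ edge lay within 100 bases of an annotated start, a class chosen after the data were seen, and otherwise was placed by its midpoint. Sequences are RefSeq's start regions, 250 bases before to 50 after each start. Input genes were called at the authors' adjusted p under 0.05. Placement was tested on simulated data. Peaks were named by a rule: the 10 highest and 10 lowest changes, the 5 highest and 5 lowest enrichments, the longest members, genes with 2 members, and members on the fixed lists (up to 4 by smallest p). The 5 genes rising and the 5 falling most in input, at a mean of at least 100, were also named. Other genes were named after their values were seen: those with overlapping rows, neighbouring peaks or near-identical copies, gene start peaks, and further members of a list. Some items that the rule names are not reported here. Python 3.11.15, pandas 2.3.3, numpy 2.4.6, scipy 1.17.1 and matplotlib 3.10.9 were used.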

Additional observations from a re-analysis of the deposited data

How the results depend on the processing

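No paired analysis was possible because the tables hold no values per library. The exon-only position and the DRACH motif over peaks were not run, since no genome or exon annotation was used. Of the 64 alternatives run, 45 stayed within the 95% interval of the value reported, and 12 were chosen after seeing the data. The intervals were taken over peaks or genes as if these were independent, and hold no spread between libraries. No alternative reversed a sign, but none could, since every value was a percent, an enrichment or a median of peaks of 1 sign. Many alternatives used a part of the same peaks, so a value close to the main one is not independent support. With no length limit among 1-block peaks, the negative share was 39.5%, the median changes -0.76 and 0.79, the median enrichment 4.96 and the share in the first 10% of the span 9.66%. At most 200 bases gave a median change of 1.45 for positive peaks, an enrichment of 1.62, 50.9% in the last 10% and 23.3% in the first 10%. An enrichment of at least 2 gave a median of -1.42 for negative peaks and, by construction, an enrichment of 3.06. Without gene start peaks, 40.3% were negative. The last 5% of the span held 42.5%. At an adjusted p under 0.01, 19.3% of genes rose and 16.1% fell (background 12.3% and 11%). Past a 1.5-fold change after centring, 1.70% rose and 2.83% fell (background 2.15% and 4.47%), so at that limit the share called was no longer above the background. Gene start peaks were negative in 100% of 26 of at most 200 bases and of 46 at a false discovery rate of at most 0.001, and in 94.0% of 67 within 300 bases. Apart from what the alternative's own construction changes, the cause was not tested.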
